A study of Mus musculus and Homo sapiens with 23 samples.

Results

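The 9 genes of MHC class I heavy chains and the gene of their shared light chain, B2m, were followed in RNA of the mouse line BV2, microglia immortalised with the oncogenes v-raf and v-myc. The members were taken by symbol: the classical genes H2-K1 and H2-D1, the H2-Q genes H2-Q4, H2-Q6, H2-Q7 and H2-Q8, the H2-T genes H2-T22, H2-T23 and H2-T24, and B2m. They are 10 of 21597 genes in the RNA tables and occupy 12 transcript rows, of which 3 belong to H2-Q7. One group, unstimulated BV2, gave 1 RNA library, and so did the other, BV2 after 3 h of lipopolysaccharide (LPS), a cell wall component of Gram-negative bacteria. The labels state no knockdown for either RNA library, and the sources used here give no LPS dose. The other 21 of the 23 samples are chromatin samples and were not analysed here. The labels name no separate cultures, so every difference compares these 2 libraries, and no p-value is given.

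A class I molecule is a polymorphic heavy chain held together with the invariant light chain beta-2 microglobulin. It displays peptides cut by the proteasome and pumped into the endoplasmic reticulum by the transporter TAP, and CD8 T cells read them. The classical chains present to most CD8 T cells, while many H2-Q and H2-T chains serve more specialised receptors of natural killer, CD8 or gamma delta T cells. Heavy chain and light chain promoters carry sites for NF-kB, an element for interferon regulatory factors and an upstream module bound by RFX factors, through which the coactivator NLRC5 acts. Resting microglia in the brain are known for low class I at the surface, which inflammatory signals raise.

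Values are FPKM, in which fragments are divided by transcript length and by the size of the library, so levels may be compared between genes. The interval after a value is the deposited 95% interval. It covers counting and, at most for some rows, the assignment of fragments within that library, and not the spread between cultures. A change is the log2(FPKM + 1) after LPS minus the log2(FPKM + 1) without it, and a gene with a change of at least 1 was called higher, or of -1 or less lower. A gene was counted where its FPKM was 1 or more in either library, which 10035 genes met. Ratios are of FPKM without the pseudocount, with a 95% interval from both deposited intervals. The class I genes are close relatives, and a fragment that matches more than 1 of them can be assigned to either, so the values of single H2-Q and H2-T genes are uncertain and summed values are given beside them.

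The promoters of the members are shown first, since they are where the known regulators bind. The RefSeq promoter table of build GRCm38.p6 held 8 of the 10 members. In the 250 bases before each start, both strands were searched for the ISRE string (GAAA, any 2 bases, GAAA, the core of the interferon-stimulated response element), the short ISRE string GAANNGAAA, the kB string (GGG, any 5 bases, CC, an NF-kB site), TTCNNNGAA (a gamma-activated site), TGACG and TGACGC (part of the module bound through RFX and CREB factors) and CCAAT. The short ISRE string was added after the sequences were seen. In the windows below, 107 bases each and written 5′ to 3′ on the strand of the gene, capitals mark matches to either ISRE string, the kB string and TGACG on either strand. They were chosen to show 2 classical genes, 2 H2-Q genes, an H2-T gene and B2m.
H2-K1, chr17:34000368-34000474, minus strand: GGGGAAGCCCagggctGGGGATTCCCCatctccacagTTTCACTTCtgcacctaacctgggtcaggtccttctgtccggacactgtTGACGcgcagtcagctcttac
H2-D1, chr17:35262907-35263013, plus strand: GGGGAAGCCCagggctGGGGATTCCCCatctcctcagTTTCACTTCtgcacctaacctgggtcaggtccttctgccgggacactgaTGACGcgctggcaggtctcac
H2-Q4, chr17:35379427-35379533, plus strand: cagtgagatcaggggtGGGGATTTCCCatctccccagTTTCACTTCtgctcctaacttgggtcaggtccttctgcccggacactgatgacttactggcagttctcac
H2-Q7, chr17:35439005-35439111, plus strand: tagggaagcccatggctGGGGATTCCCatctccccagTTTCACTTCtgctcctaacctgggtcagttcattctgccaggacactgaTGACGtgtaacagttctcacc
H2-T22, chr17:36042864-36042970, minus strand: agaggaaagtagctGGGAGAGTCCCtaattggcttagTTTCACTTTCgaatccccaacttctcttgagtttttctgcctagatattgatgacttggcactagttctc
B2m, chr2:122147511-122147617, plus strand: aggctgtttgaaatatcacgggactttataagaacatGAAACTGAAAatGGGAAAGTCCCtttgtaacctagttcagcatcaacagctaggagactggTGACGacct

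The full ISRE string, searched as planned, was in 3 of 8 member promoters, against 3.04% of 27025 promoters in the table. The 3 were H2-T22, H2-T23 and B2m. H2-K1, H2-D1, H2-Q4, H2-Q6 and H2-Q7 held the shorter form, each as TTTCACTTC on the strand of the gene, which 6.34% of all promoters hold in some form. All 8 thus held a string of either length, against 8.91% of all promoters. The short string was chosen from these same sequences, so the 8 of 8 is a description and cannot be weighed against that share. The kB string was in 7 of 8, all except H2-T23, but it is a common string, present in 45.4% of all promoters. A kB match began 20 or 21 bases before the ISRE match in H2-K1, H2-D1, H2-Q4 and H2-Q6 and 20 bases before it in H2-Q7. In H2-T22 that distance was 22 or 23 bases. In B2m the nearest kB match lay on the other side, beginning 12 or 13 bases after the ISRE match. TGACG was in 6 of 8 against 17.9%, TGACGC in 2 of 8 (H2-K1 and H2-D1) against 6.14%, CCAAT in 8 of 8 against 34.5%, and TTCNNNGAA in 0 of 8 against 7.18%. The TGACG matches of H2-Q4 and H2-T22 lay outside the windows above, at -73 and -22 from the start, nearer to it than the windows reach. A TGACG match is thus not by itself a site of the module. The classical windows were 92.5% identical over 107 bases laid side by side without gaps. The promoters of related genes share descent, so these counts are not independent, and a match is a description of the letters, not of binding.

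After 3 h of LPS every heavy chain gene among the members was higher, and B2m was higher by less than the size rule. Of the 10 members 9 were called higher and 0 lower, against 8.55% of counted genes called higher and 12.4% called lower, and all 10 had a change above 0, which 35.8% of counted genes had. The member outside the rule was B2m. The deposited intervals were separate, with the LPS value above, for 10 of 10 members, as for 25.1% of counted genes. For 48.4% of counted genes the intervals were separate with the LPS value below. The median change was 1.59 over the members and -0.24 over all counted genes, and the members' changes ran from 0.86 to 2.58. H2-T24 was counted only because its LPS value passed an FPKM of 1. Without a filter on low values the count of members called higher was also 9.

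**Figure D1:**
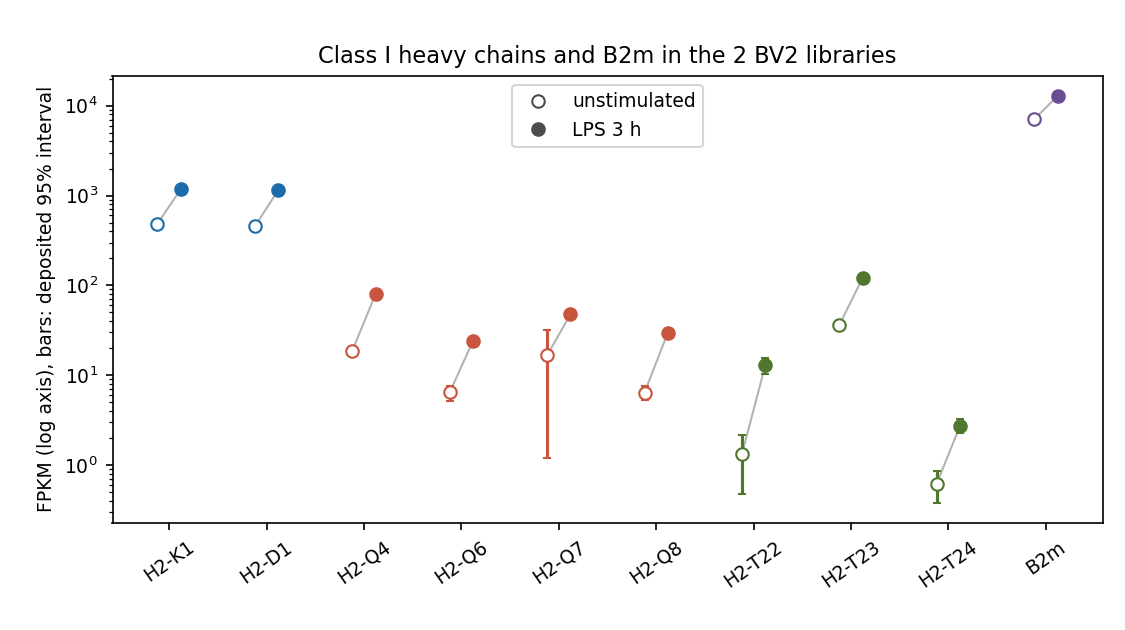
FPKM on a log axis of each member in the unstimulated (open circles) and LPS (filled circles) libraries, with deposited 95% intervals as bars. The levels span from 0.621 FPKM for unstimulated H2-T24 to 12792 for B2m after LPS, and the wide bar is that of H2-Q7 in the unstimulated library (1.19 to 32.1).

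The classical genes were the most abundant heavy chains and had the smallest ratios among them. H2-K1 (mm9 chromosome 17, 34132957 to 34137278), the K chain that presents peptides to CD8 T cells, was at 487 FPKM (480 to 495) without LPS and at 1178 (1166 to 1190) with it. Its ratio was 2.42 (2.37 to 2.46) and its change 1.27. H2-D1 (chromosome 17, 35400039 to 35404442), the D chain with the same task, was at 455 (447 to 462) and 1151 (1140 to 1163). Its ratio was 2.53 (2.49 to 2.58) and its change 1.34. Both genes were thus high before stimulation, and the LPS values lay far outside the intervals of the unstimulated library. The 2 genes were close in level in each library, with H2-K1 at 1.07 times H2-D1 before and 1.02 times after LPS. The ratio of H2-D1 exceeded that of H2-K1 by 1.05-fold (1.02 to 1.08), a small gap that exceeds these intervals. After quantile normalisation H2-K1 fell short of the rule, with a change of 0.95, and H2-D1 stood at 1.04.

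The H2-Q genes were far lower in level and had larger ratios, with H2-Q7 less certain. H2-Q4 (chromosome 17, 35516562 to 35521619) was at 18.8 FPKM (17.3 to 20.2) without LPS and 80.5 (77.6 to 83.5) with it, and its ratio was 4.29 (3.94 to 4.68). H2-Q6 (35561822 to 35565306), one of a block of related genes that encode the Qa-2 antigen, stood at 6.44 (5.22 to 7.67) and, after LPS, 24.2 (21.8 to 26.5), which is a ratio of 3.75 (3.03 to 4.64). H2-Q8 (35531044 to 35532577), also named as a gene of that block, stood at 6.42 (5.32 to 7.51) and, after LPS, 29.7 (27.5 to 32.0), which is a ratio of 4.64 (3.85 to 5.59). All 3 rose past the size rule, with changes of 2.04, 1.76 and 2.05, and with separate intervals. The row of H2-Q8 needs care. It lies between H2-Q4 and H2-Q6 in mm9, where the symbol table of GRCm38.p6 has the pseudogene H2-Q5 in its gene order, and that table lists H2-Q8 outside this stretch. The row spans 1534 bases, against 1532 for H2-Q5 and 32769 for H2-Q8 in the symbol table, so its name is uncertain. H2-Q5 had no row of its own in the tables.

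H2-Q7 (35576100 to 35580718), the best known gene for Qa-2, was at 16.6 FPKM (1.19 to 32.1) in the unstimulated library and 47.6 (44.5 to 50.7) in the LPS library. Its change was 1.46 and its ratio 2.86, with an interval of 1.13 to 7.25 that overlaps those of the other H2-Q genes. Nearly all of the value sat on 1 of its 3 transcript rows, and the other two were at 0.002 FPKM or less in the unstimulated library and below 0.001 in the LPS library. H2-Q9, a near copy whose row overlaps H2-Q7 by 4604 bases in these tables, was at 0.692 and 3.32 with a status of low data in both libraries and was left out. Within the H2-Q genes 0 of 6 pairs differed in ratio beyond their intervals.

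The H2-T genes rose as well, over the widest spread of levels and ratios. H2-T23 (chromosome 17, 36166922 to 36169646) encodes Qa-1, which shows leader peptides of other class I chains to the inhibitory receptor NKG2A on natural killer cells. Its level was 36.2 FPKM (33.8 to 38.6) without LPS and 122 (117 to 126) with it, and its ratio of 3.36 (3.11 to 3.63) came with a change of 1.72. H2-T22 (36175354 to 36179647), whose product binds receptors of gamma delta T cells without presenting a peptide, was at 1.32 (0.481 to 2.16) and 12.9 (10.42 to 15.4). Its ratio of 9.78 (5.04 to 19.0) and its change of 2.58 were the largest among the members. H2-T24 (36142640 to 36157505) was at 0.621 (0.382 to 0.861) and 2.74 (2.25 to 3.23), with a ratio of 4.41 (2.88 to 6.74) and a change of 1.21. H2-T24 was the lowest member in both libraries, and with a pseudocount of 5 its change was 0.46, short of the rule.

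The value of H2-T22 depends on a second row at the same place. The tables also hold a RefSeq transcript, NM_010399, that matched no symbol and overlaps H2-T22 by 4284 bases. That row was at 6.15 (5.19 to 7.11) and 40.9 (38.4 to 43.4) FPKM, so most of the signal at this place was assigned to it and not to the H2-T22 row. Both rows rose, and together they were at 7.47 (6.20 to 8.75) and 53.8 (50.3 to 57.3), with a ratio of 7.201 (6.0 to 8.64).

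B2m (mm9 chromosome 2, 121973423 to 121978818), the light chain that all these heavy chains need to reach the surface, lies on another chromosome and was the 4th most abundant counted gene in both libraries. Its level was 7050 FPKM (7006 to 7095) without LPS and 12792 (12734 to 12850) with it. The ratio was 1.81 (1.80 to 1.83), the smallest of the 10 members, and the change of 0.86 was above that of 90.2% of counted genes. Whether B2m passed the rule depended on the scale: its change was 1.15 after median scaling, 0.61 on the TPM scale, where each library sums to the same total, and 0 after quantile normalisation, which sets it so because its rank was the same in both libraries.

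**Figure D2:**
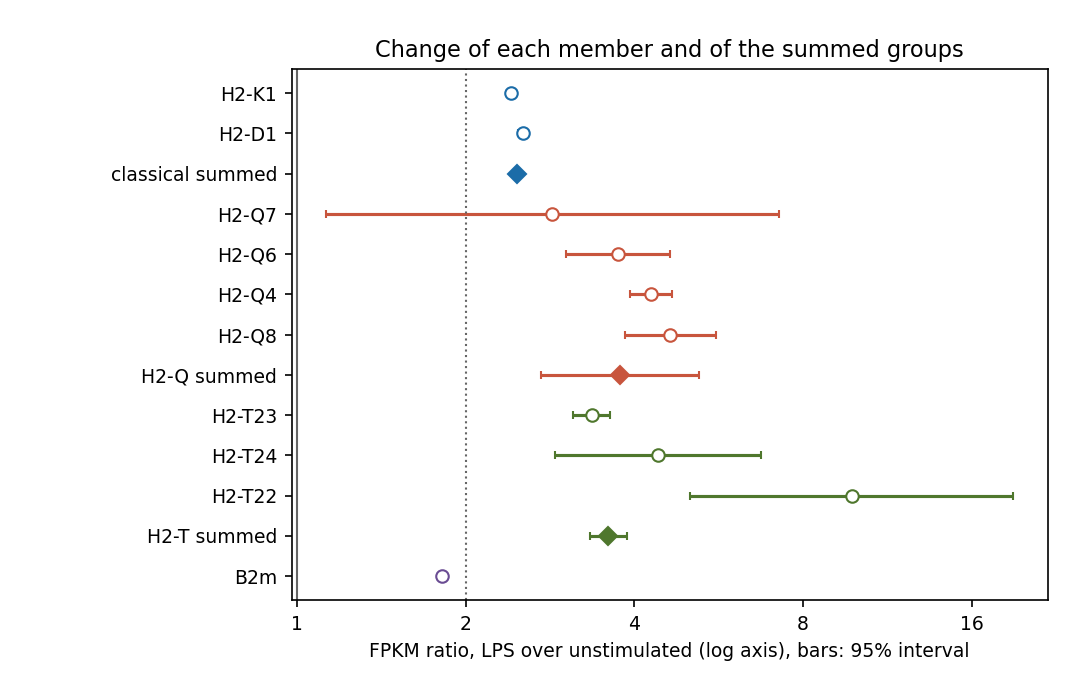
Ratio of FPKM, LPS over unstimulated, on a log axis for each member (circles) and for the sums of the groups (diamonds), with 95% intervals as bars. The dotted line marks a ratio of 2. B2m at 1.81 lies left of it and H2-T22 at 9.78 farthest to the right.

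Summed by group, the H2-Q and H2-T genes changed more than the classical pair. The classical sum was 942 FPKM (931 to 953) without LPS and 2329 (2312 to 2345) with it, and its ratio was 2.47 (2.44 to 2.51). For H2-Q the sums were 48.3 (32.7 to 63.9) and 182 (177 to 187), with a ratio of 3.77 (2.73 to 5.22). For H2-T they were 38.1 (35.6 to 40.7) and 137 (132 to 142), with a ratio of 3.60 (3.33 to 3.89). The H2-Q ratio was 1.53 times the classical ratio (1.10 to 2.11), and the H2-T ratio was 1.46 times it (1.35 to 1.57). Both intervals exclude 1, so in these 2 libraries the gaps exceed the deposited error. For several rows that error looks like counting alone. The implied fragments without LPS were nearly whole numbers, 109.999 for H2-Q6, 138.001 for H2-Q8 and 27 for H2-T24. Errors in assigning fragments among near-identical genes may therefore not be covered, and no replicate shows how far cultures vary. The H2-Q and H2-T ratios did not differ beyond their intervals (1.05, 0.751 to 1.46). Each of the 3 groups exceeded B2m in ratio, by 1.36-fold (1.34 to 1.38) for the classical sum, 2.08-fold (1.502 to 2.88) for H2-Q and 1.98-fold (1.84 to 2.14) for H2-T.

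Gene by gene, every H2-Q gene had a larger ratio than either classical gene in 8 of 8 pairs, and in 6 of them beyond the intervals. The exceptions were the pairs with H2-Q7. Every H2-T gene did so in 6 of 6 pairs, each beyond the intervals. On the log2(FPKM + 1) scale the order differs for H2-T24, whose change of 1.21 lies below those of the classical genes because its level is low against the pseudocount. Ordered by ratio from the top, the members ran H2-T22, H2-Q8, H2-T24, H2-Q4, H2-Q6, H2-T23, H2-Q7, H2-D1, H2-K1 and B2m. Neighbours in that order did not differ beyond their intervals from H2-Q8 down to H2-D1. H2-T22 exceeded H2-Q8 by 2.11-fold (1.06 to 4.202), and H2-K1 exceeded B2m by 1.33-fold (1.30 to 1.36). The group gap also rests on which genes are summed. H2-T23 carries most of the H2-T sum, and without it the H2-T ratio was 8.06 (5.002 to 12.99). Without H2-Q7 the H2-Q ratio was 4.25 (3.94 to 4.59), which is 1.72 times the classical ratio (1.59 to 1.86). The H2-Q sums and the pair counts include the H2-Q8 row, whose name is uncertain (6.42 FPKM without LPS and 29.7 with it). A sum without that row was not computed.

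The classical genes made up most of the heavy chain mRNA in both libraries. H2-K1 and H2-D1 held 91.6% of the summed heavy chain FPKM without LPS and 87.9% with it. The H2-Q genes went from 4.69% to 6.87% and the H2-T genes from 3.71% to 5.18%. B2m mRNA exceeded the sum of the 9 heavy chains 6.86-fold (6.72 to 6.99) before and 4.83-fold (4.79 to 4.87) after LPS. The light chain thus remained in excess at the RNA level, by a smaller factor after LPS. The 10 members together held 1.46% of all summed FPKM before and 2.35% after LPS, of which B2m alone was 1.27% and 1.95%.

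**Figure D3:**
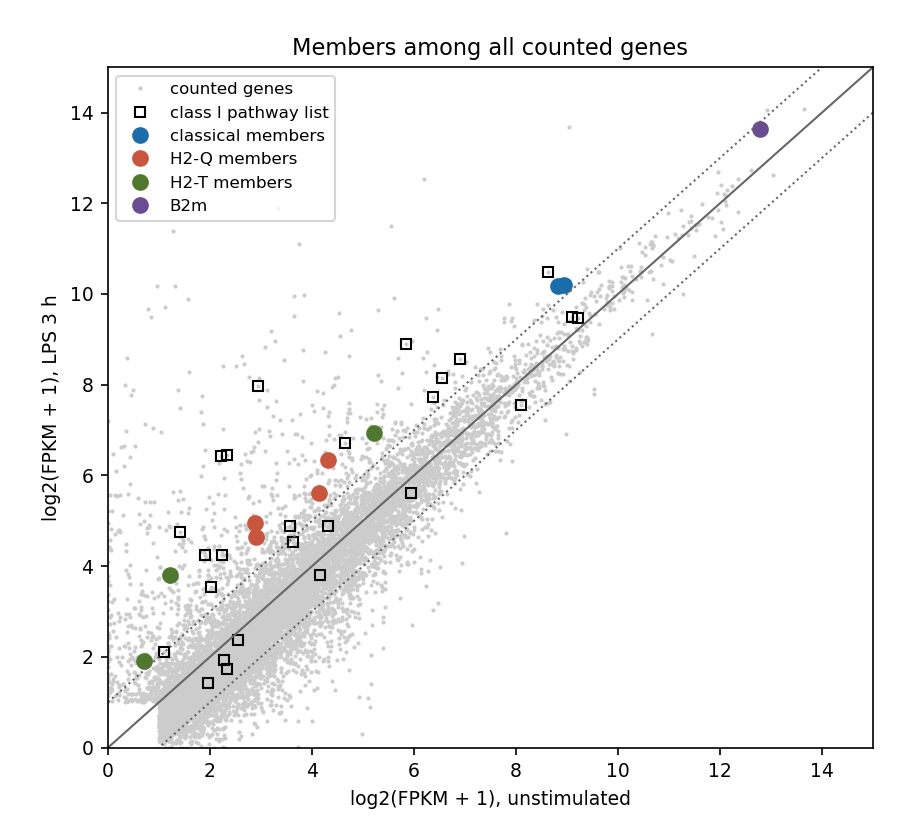
log2(FPKM + 1) in the LPS library against that in the unstimulated library for 10035 counted genes (grey), the class I pathway list (squares) and the members (coloured). The solid line marks equal values and the dotted lines a change of 1 either way. The heavy chains lie above the upper dotted line and B2m just below it.

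The machinery that feeds class I molecules was read from a list of 27 genes. They make peptides, load them, regulate class I transcription or encode receptors of myeloid cells. Of 26 counted, 15 were higher and 0 lower, against 8.55% and 12.4% of all counted genes (median change 1.34, against -0.24 over all counted genes). The ubiquitin-like Ubd was below the filter, listed at 0 in the unstimulated library and at 0.296 FPKM in the LPS library. Among the 9 genes of peptide transport, trimming and loading, 4 rose: the transporter subunits Tap1 and Tap2, the loading factor Tapbp and the peptide editor Tapbpl. Tap1 was at 3.64 FPKM, with an interval of 0 to 7.50, without LPS and at 85.2 (82.2 to 88.1) with it. Tap2 was at 1.67 (1.31 to 2.04) and 25.8 (24.4 to 27.2), Tapbp at 4.03 (3.47 to 4.58) and 86.9 (84.3 to 89.6), and Tapbpl at 2.75 (2.23 to 3.27) and 18.1 (16.8 to 19.4). The levels of these loading genes without LPS were far below those of the classical chains. The peptide trimmer Erap1 had a change of 0.90, which became 1.17 after median scaling. The general folding proteins of the endoplasmic reticulum did not pass the rule, with changes of 0.26 for Calr, 0.40 for Hspa5, -0.33 for Canx and -0.54 for Pdia3.

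All 5 counted proteasome genes of the list rose, against 8.55% of all counted genes called higher. They are the immunoproteasome subunits Psmb8 (82.3 to 213 FPKM), Psmb9 (23.9 to 104) and Psmb10 (56.3 to 476) and the activator subunits Psme1 (93.04 to 284) and Psme2 (119 to 376). Psmb10 had the largest ratio of the 5, at 8.45 (7.97 to 8.95), and Psme2 had a wide interval without LPS (38.3 to 200). Of 10 counted transcription regulators 4 rose, against the same 8.55%. Nlrc5, the class I coactivator, was at 3.73 (3.42 to 4.05) and 17.9 (17.2 to 18.6), with a ratio of 4.79 (4.36 to 5.25). Irf1 and Irf2, which bind the interferon-type element, had changes of 5.03 and 1.31. Rfx5, the RFX subunit that binds the upstream module, was at 1.14 and 3.30, a change of 1.00 that lies at the rule and became 0.98 after TPM and 0.43 with a pseudocount of 5. Its partners Rfxap and Rfxank had changes of -0.60 and -0.33, the latter -2.27 and thus past the rule for lower when its highest transcript row alone was used, Creb1 had -0.54, and the CCAAT-binding subunits Nfya, Nfyb and Nfyc had -0.35, -0.18 and 0.57. The listed receptors of myeloid cells, the class I receptor Pirb (3.07 to 10.61) and Lilrb4a (396 to 1423), also rose, Pirb not with a pseudocount of 5.

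Other class I genes behaved unevenly. Of 37 class I and class I-like genes outside the members, 30 had usable rows and 9 were counted. Of these 9, 3 rose and 0 fell, against 8.55% and 12.4% of all counted genes (median change of the 9 genes 0.52). H2-T10, a close relative of H2-T22, was at 2.89 FPKM (2.29 to 3.50) without LPS and 20.2 (18.6 to 21.7) with it. H2-M3, which presents formylated peptides of bacteria, was at 10.55 (9.30 to 11.8) and 28.1 (26.1 to 30.1). Procr, the CD1-like receptor for protein C, rose from 6.76 to 201. The 6 within the rule were H2-Q1 (2.45 and 3.95), the neonatal Fc receptor Fcgrt (3.86 and 6.27), Mr1, which presents vitamin metabolites (2.29 and 1.71), the iron regulator Hfe (44.7 and 34.1) and the NKG2D ligands Raet1d (10.45 and 10.499) and Raet1e (26.3 and 33.2). The lipid-presenting Cd1d1 was below the filter at 0.917 and 0.106, and 11 of the 30 genes, among them H2-M1, H2-M9 and H2-M11, were listed at 0 in both libraries.

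**Figure D4:**
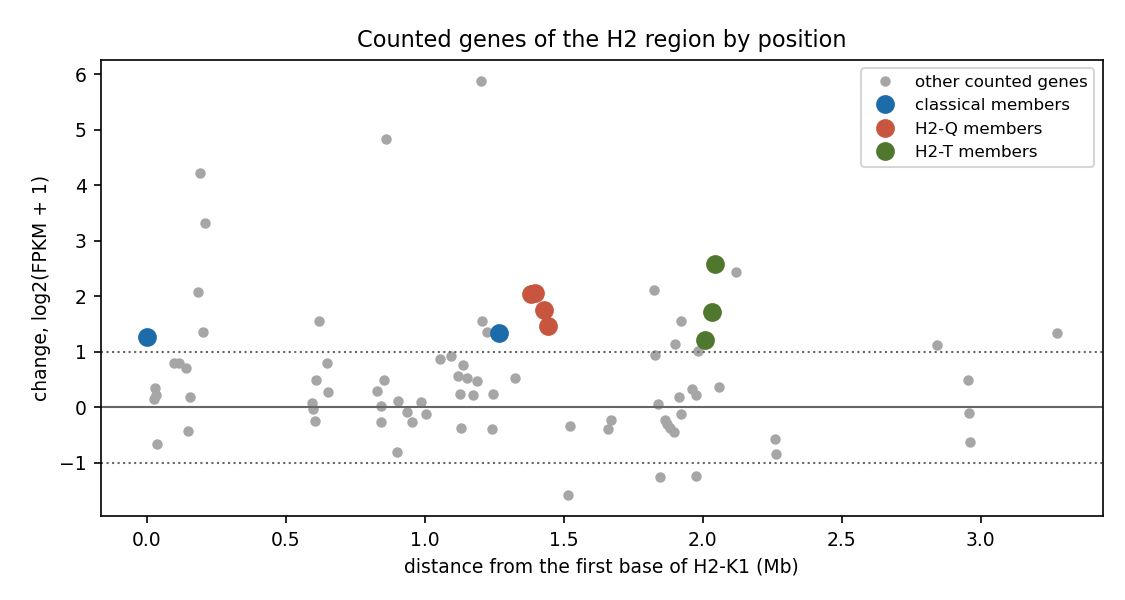
Change on the log2(FPKM + 1) scale of the counted genes between H2-K1 and H2-M3 on chromosome 17, by distance in Mb from the first base of H2-K1. The 9 heavy chain members (large points) lie between 1.21 and 2.58, and dotted lines mark a change of 1 and -1.

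The heavy chains sit in 3 places of the H2 region. H2-D1 starts 1267 kb from the start of H2-K1, the H2-Q genes lie between 1384 and 1443 kb from it and the H2-T genes between 2010 and 2042 kb. The stretch from H2-K1 to H2-M3 held 165 other genes, of which 76 were counted, and 17 of these (22.4%) were higher and 3 lower. Leaving out other genes with class I symbols, 15 of 73 were higher, and these still include the unmatched transcript that overlaps H2-T22. Among the counted genes of the rest of chromosome 17, 34 of 435 (7.82%) were higher. Those that rose in the stretch included Psmb9, Tap1, Psmb8 and Tap2, which start between 186 and 208 kb from the start of H2-K1, the complement factor Cfb (0.233 to 34.0 FPKM), the cytokine Tnf (11.5 to 735) and the early response gene Ier3 (40.4 to 177). The last 3 were picked as examples after their values were seen. Whether position bears on the change was not tested.

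The label of the cells was checked against marker lists. All 7 measured macrophage and microglia markers were counted, with summed values of 10116 FPKM without LPS and 8500 with it. The gene of the myeloid transcription factor PU.1, Spi1, was called higher, and the other 6 were within the rule. Of 4 neuronal, 4 astrocyte, 4 oligodendrocyte, 3 lymphocyte and 4 fibroblast or endothelial markers 0 were counted, no list of them summed to more than 0.788 FPKM in either library, and the 3 lymphocyte markers (Cd3e, Ms4a1 and Cd79a) were listed at 0 in both libraries. Of 3 dendritic cell markers Flt3 was at 0.0264 and 0, Zbtb46 was at 0.905 and 1.34, and Xcr1 was at 0.0536 and 1.40 and was called higher, with a change of 1.19. Whether any dendritic cells were present, or had a part in the class I values, was not tested. In bulk RNA a change in how many cells express a gene cannot be told apart from a change per cell.

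**Figure D5:**
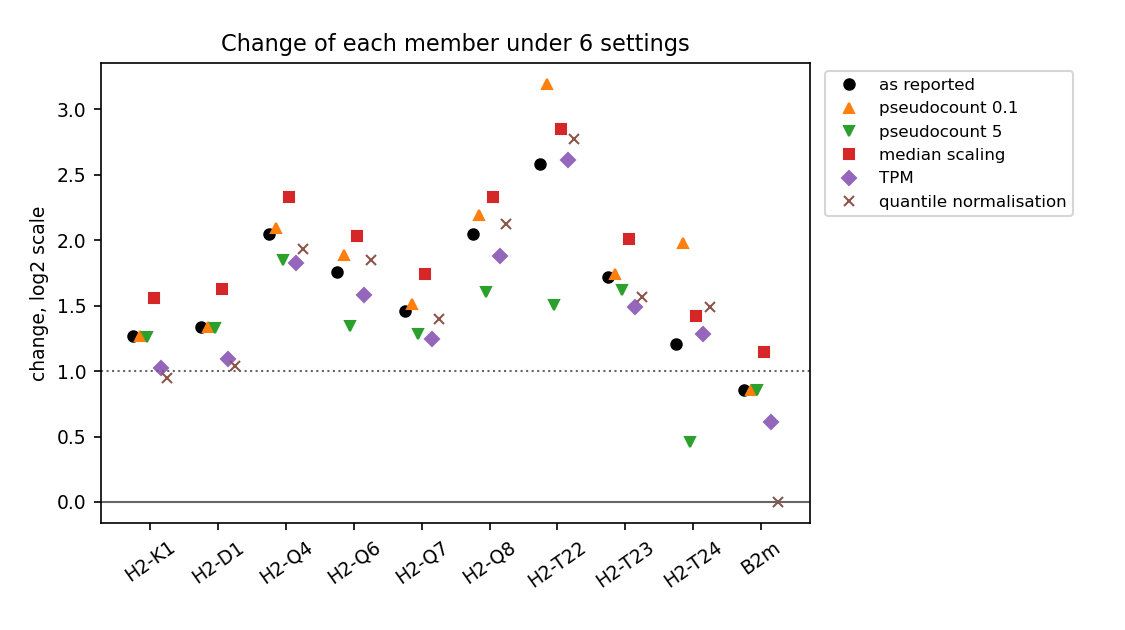
Change of each member on the log2 scale as reported and with 5 other settings of pseudocount or scaling. Every plotted value is at or above 0. H2-K1 falls below the dotted line at 1 with quantile normalisation (0.95), H2-T24 with a pseudocount of 5 (0.46), and B2m lies above it with median scaling (1.15).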

How the data were processed

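The authors deposited FPKM values per RefSeq transcript, each with a lower and an upper bound and an estimation status, in 1 table for each of the 2 RNA libraries. Per the submitters' processing notes the tool was Cufflinks and the build mm9; the sources used here name neither its version nor an aligner. Per the labels' protocols the kit was strand-specific and reads had 76 bases. Both tables held the same 28246 rows. Symbols came from a RefSeq table of GRCm38.p6 (97.6% of rows matched), used for names and gene order only, and promoters from a RefSeq table of that build. Loci are the deposited mm9 loci, written 1-based.

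Rows with a status other than OK in either library (391) and of small RNA genes (704) were left out, rows of a symbol were summed, and half-widths (upper bound minus value) were combined in quadrature. A half-width was read as 2 standard deviations, and intervals of ratios were built on the log scale. Summed intervals treat rows as independent, which near-identical genes are not. Read this way, the bounds imply 1.38e+07 fragments without LPS and 1.69e+07 with it. These sums are not library sizes and can fall short of the true counts, since a row with wide bounds implies few fragments. Without LPS, H2-Q7 at 16.6 FPKM implies 4.64 fragments, and H2-Q4 at 18.8 FPKM implies 655. Low values put the denominators of the FPKM at a quotient of 1.05, LPS over unstimulated (2090 rows). With 1 library per group there was no test. The text names all members, the members of the lists that were called and those needed to account for a list, and for B2m, H2-K1 and H2-Q7 the 3 genes nearest in level. The members and lists were chosen with earlier results of these data known. In the lists, 2 genes are not reported here. The protein identity that was planned was not computed. Python 3.11.15, numpy 2.4.6 and pandas 2.3.3 were used.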

Additional observations from a re-analysis of the deposited data

How the results depend on the processing

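No change of a member or group fell below 0 under the alternatives, and B2m reached 0 under quantile normalisation. A pseudocount or a filter cannot reverse the sign of a change, and neither can the choice of rows for members of 1 row. Of the planned settings, it was therefore mainly the scalings that could have turned a direction. Scaling moved the median change of all counted genes by 0.24 (median scaling), -0.24 (TPM) and 0.11 (quantile normalisation). The groups moved with the median after median scaling and TPM, and against it after quantile normalisation. The classical change of 1.30 became 1.59, 1.06 and 0.99, the H2-T change of 1.82 became 2.11, 1.59 and 1.70, and the B2m change of 0.86 became 1.15, 0.61 and 0. The gap of H2-T over classical, 0.52, ran from 0.42 (pseudocount 5) to 0.71 (quantile normalisation) under the planned settings. Added after the data were seen, leaving out H2-T23 gave an H2-T change of 2.5 and a gap of 1.20, and adding the unmatched row that overlaps H2-T22 gave 1.98 and 0.68. The gap of H2-Q over classical, 0.59, ran from 0.51 to 0.86. Members called higher ran from 8 to 10 and pathway genes called higher from 13 to 19, the last with each transcript row on its own. Counted genes called lower, 1248 as reported, were 2061 with a pseudocount of 0.1, 354 with 5, 788 after median scaling and 2280 after TPM, and higher genes made up 40.7% of those called as reported, 59.2% after median scaling, 24.8% after TPM and 53.0% after quantile normalisation. The cause of these shifts was not tested. No paired analysis was possible because each group is 1 library. Among the members, the fewest implied fragments without LPS were 4.64 for H2-Q7, 9.92 for H2-T22 and 27 for H2-T24. Some pathway genes also had few, such as Tap1 with 3.56, Psme2 with 8.70 and Irf1 with 13.6. The values of H2-Q7 and H2-T22 carry the uncertainty of assignment as well as depth, while the whole number of H2-T24 is what counting alone would give.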

Other observations

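MHC class II presents peptides taken up from outside to CD4 T cells. Of 12 listed class II genes 11 had a row, 5 were counted and 0 passed the size rule in either direction (median change 0.71, against -0.24 over all counted genes). Over all counted genes 8.55% were called higher and 12.4% lower, so 0 of 5 is near those shares. The chains that form the surface molecules, H2-Ab1, H2-Eb1 and H2-Eb2, were listed at 0 in both libraries, and H2-Aa was at 0.0526 and 0. Of the genes for peptide exchange, H2-DMa was at 0.394 and 1.28 FPKM, with a change of 0.71 that became 1.48 with a pseudocount of 0.1. H2-DMb1 was at 4.43 and 5.14 and H2-DMb2 at 1.56 and 0.894. Their inhibitor H2-Oa was at 7.33 and 13.4, with a change of 0.79 that became 1.06 after median scaling. The invariant chain Cd74 was at 420, with a wide interval of 153 to 687, and at 796 (781 to 811). Its change of 0.92 became 1.21 after median scaling. The difference between class I and class II was not tested.

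The pseudogene H2-K2, which lies next to H2-K1 and shares sequence with it, was at 1.59 FPKM (1.08 to 2.09) and 8.67 (7.51 to 9.83), and fragments cannot be told apart where the copies are identical. Beyond H2-M3 on chromosome 17, a transcript that matched no symbol, NM_008204 (mm9, 37617796 to 37620474), was at 0.0344 FPKM (0 to 0.103) without LPS and 22.8 (21.1 to 24.5) with it. Both were picked after their values were seen.

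In level in both libraries, the gene nearest to H2-K1 among 10035 counted genes was H2-D1, at a distance of 0.11 on the log2(FPKM + 1) scale, followed by the metallothionein Mt2 (0.17) and the proteasome subunit Psmd8 (0.39). Nearest to B2m were the ferritin heavy chain Fth1 (0.44), Lgals1 (0.92) and the ribosomal protein Rplp1 (0.97), and nearest to H2-Q7 were Tnfrsf12a (0.06), Alas1 (0.07) and Pnrc1 (0.07). With 2 libraries, this likeness says only that the listed values are close. For H2-Q7 it says less, since its interval without LPS (1.19 to 32.1 FPKM) is far wider than these distances.

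An ISRE string of either length was in 17.4% of the promoters of 678 genes called higher and in 6.62% of those of 7358 other counted genes. The kB string was in 65.9% and 61.2%, and TGACG in 21.1% and 29.8%. These are shares of letters within 250 bases of a start and were not tested. The short ISRE string was chosen from the member promoters, most of which are among those of the genes called higher.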
